A study of Mus musculus with 26 samples.

Results

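The 10 cyclin genes of mitosis and meiosis were examined in mouse testes, namely *Ccna1* and *Ccna2*, *Ccnb1*, *Ccnb2* and *Ccnb3*, *Ccnd1*, *Ccnd2* and *Ccnd3*, and *Ccne1* and *Ccne2*. They were taken by gene symbol from the deposited table, where they are 10 of 51124 genes. All 10 passed the filter on low values, which left 23782 genes for the tests. Total RNA of whole adult testes, depleted of ribosomal RNA, was sequenced in 6 libraries, of which N1 and N2 are wild type, N3 and N4 *10xPerf*, and N5 and N6 *10xBulge*. In both knock-in lines, 10 binding sites for piR-A, a piRNA of pachytene spermatocytes, were placed with CRISPR/Cas9 in the 3′ UTR of *Ythdc2*, an RNA helicase gene of meiotic germ cells. The *10xPerf* sites pair fully with piR-A, and the *10xBulge* sites are mismatched at its nucleotides 10 and 11. The lines were made in B6D2F1/J hybrid embryos and kept as homozygotes. The zygosity and exact age of the sequenced animals, and the strain of the wild-type mice, are not given in the sources used here. The labels give a different mouse for each library, so the spread within a genotype is that between animals.

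Cyclins are the regulatory subunits of cyclin-dependent kinases (CDKs), and many of them are made and destroyed in every cell cycle. Cyclins D and E drive cells through G1 and into S phase, cyclin A acts in S and G2 phase, and cyclin B together with CDK1 drives entry into division. The male germ line uses particular members, of which *Ccna1* is needed for spermatocytes to enter the meiotic divisions, while *Ccna2* is the cyclin A of dividing cells.

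Library sums ranged from 39754103 to 59804251 normalized counts, which correspond to roughly 41.1 to 61.6 M reads, and 3 reads are worth 2.73 to 3.63 normalized counts. All cyclin values were above this floor, the lowest being 107. The ribosomal RNA gene *Rn18s* took 4.02% of the counts in N1 and 0.0449% to 0.41% in the other libraries, so cyclin results that rest on N1 are also given without it. Calls of marker and pathway genes are not given without N1. Markers of spermatogonia, spermatocytes, spermatids and the somatic cells of the testis were above 0 in every library. In *10xBulge*, where 23% of all genes tested were called lower than in wild type, all 14 spermatid markers were lower (median log2 fold change -7.10). Their summed level was 626907 to 879430 normalized counts in the wild-type and *10xPerf* libraries and 1859.85 and 3158 in the *10xBulge* libraries (sums of markers are given with the lower value first). In bulk RNA, fewer cells of a type and less RNA per cell cannot be told apart.

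Short stretches of the promoters of *Ccnb1*, *Ccnb2* and *Ccnd3* are shown, as the B and D cyclins with the highest levels per length in wild type. *Ccna1* also had a high level, and its match is given below without its stretch. The sequences are from RefSeq on GRCm38.p6, 5′ to 3′ on the strand of the gene, with a CCAAT box (the letters CCAAT, or ATTGG on the other strand) in capitals. Positions are counted from the start of transcription annotated in RefSeq, with negative numbers before it. The gene spans given further below are from GENCODE and can start elsewhere. They contain the *Ccnb1* box at -67, the *Ccna1* match at -107 and the *Ccnd3* box at -108. *Ccnb2* has 3 CCAAT boxes, at -87 (chr9:70421624-70421653), -54 (chr9:70421591-70421620) and -21 (chr9:70421558-70421587), all on the reverse strand of the chromosome.
Ccnb2, -87: aatacaagccagCCAATcaacgtgcagaaa
Ccnb2, -54: cttccagtctagCCAATgggttgcgcgcgc
Ccnb2, -21: gcgtgcgtctacCCAATagtgcgtcagcgg
*Ccnb1* has 2, at -99 (chr13:100786568-100786597) and -67 (chr13:100786536-100786565), also on the reverse strand.
Ccnb1, -99: gaacccgcggcgCCAATgggaagagagcga
Ccnb1, -67: gccacgaactggCCAATgaggagcgagcgg
*Ccnd3* has 2 annotated starts, and a CCAAT box lies at -108 of the downstream one (chr17:47593347-47593376, forward strand).
Ccnd3, -108: gagcccagcggaCCAATggggctgcgggga

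Promoters were at hand for 6 of the cyclins, in 7 windows from 250 bases before to 50 bases after the start. A CCAAT box was found in 37.4% of the 32851 promoters searched in the same way, so its presence alone is common. *Ccna1* had 1, on the other strand at -107, and *Ccnb3*, *Ccne1* and the upstream start of *Ccnd3* had 0. The cell cycle element CHR (TTTGAA), found in 17.9% of promoters, was in *Ccnb2* only, at -167 and 4. The GC box (GGGCGG, 35.7% of promoters) occurred 4 times at *Ccne1*, and the MYB motif (TAACNG, 23.3% of promoters) 4 times at *Ccnb3*. E2F motifs (TTTGGCGC, TTTCGCGC, TTTCCCGC or TTTGCCGC, 2.26% of promoters) and the CRE (TGACGTCA, 1.79% of promoters) were found in 0 of the 7 windows. The CCAAT boxes shown share no letters with a match of another motif. Both strands were searched for each motif, and a match is a description of letters, not of binding.

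Levels of different cyclins were compared as normalized counts per kilobase of the longest annotated transcript. In wild type the highest were *Ccna1* with 3683 ± 731 (SD, n = 2) and *Ccnb2* with 3566 ± 303 (SD, n = 2), which overlapped. *Ccnd3* followed with 2178 ± 229 (SD, n = 2), below both. *Ccnb1* had 952 ± 335 and *Ccne2* 587 ± 295 (SD, n = 2 each), and these overlapped. The other 5 were lower and each overlapped its neighbour in the order *Ccne1* (171 ± 30.8), *Ccnd1* (151 ± 81.1), *Ccna2* (103 ± 29.7), *Ccnd2* (86.8 ± 15.8) and *Ccnb3* (61.1 ± 53.4; all per kilobase, SD, n = 2). The place of *Ccnd3* depends on the length used. Its longest transcript has 3858 bases and is not of protein-coding type, and with its longest protein-coding transcript of 2113 bases it came first with 3977 ± 419 per kilobase (SD, n = 2), overlapping *Ccna1*.

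**Figure D1:**
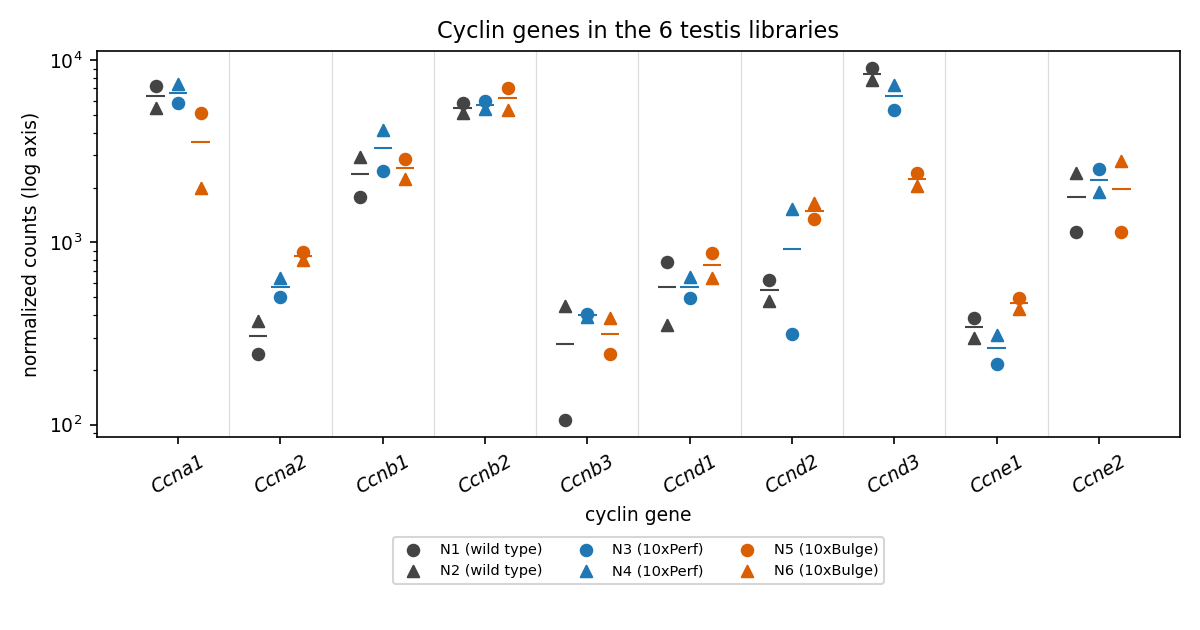
Normalized counts (log axis) of the 10 cyclins (x axis) in each of the 6 libraries, with circles for the first and triangles for the second library of a genotype and a short line at the mean. The *Ccnd3* points of *10xBulge*, 2402 and 2036, lie below all others of that gene, and its *Ccna2* points, 882 and 805, lie above.

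*10xPerf* was compared with wild type to ask whether fully paired piR-A sites in *Ythdc2* go with a change in cyclin expression. None of the cyclins passed the limma adjusted p threshold of 0.1, in either direction. Of all genes tested, 0.467% were called higher, 0.492% lower and 0.959% in either direction, so a count of 0 among 10 is near this background. At an unadjusted p under 0.05 the count among the cyclins was also 0. The median log2 fold change of the cyclins was 0.23, beside 0.018 for all genes tested.

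The wild-type and *10xPerf* libraries did not overlap for 2 of the cyclins, *Ccna2* higher and *Ccnd3* lower, beside 20.2% higher, 19.8% lower and 40% in either direction among all genes tested. *Ccna2* had 244 and 369 normalized counts in the wild-type pair and 503 and 637 in the *10xPerf* pair. Both knock-in libraries were above both controls, with a log2 fold change of 0.91 (standard error 0.41, limma adjusted p = 0.83, 95% confidence interval -0.0070 to 1.83). Its size depended on the wild-type library used, with 0.62 without N1 and 1.21 without N2. *Ccnd3* had 9029 and 7778 in the wild-type pair and 5319 and 7346 in the *10xPerf* pair (log2 fold change -0.42 with a standard error of 0.39, limma adjusted p = 0.855). Both *10xPerf* values were lower, by less than the test could separate from the spread. The log2 fold change ran from -0.66 without N4 to -0.19 without N3, and with the GC trend removed it was -0.040 and the libraries overlapped. For the other 8 cyclins the libraries overlapped. Their log2 fold changes lay between -0.39 for *Ccne1* and 0.86 for *Ccnb3*, and none passed the threshold.

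*10xBulge* was compared with the same wild-type libraries to ask the question for the mismatched sites. *Ccnd3* fell and *Ccna2* rose, while 8 of the 10 did not pass the threshold. Of all genes tested, 11.4% were called higher, 23% lower and 34.4% in either direction, so 2 of 10 is not above the background. Libraries did not overlap for 3 cyclins that were higher (*Ccna2*, *Ccnd2* and *Ccne1*) and 2 that were lower (*Ccna1* and *Ccnd3*), beside 28.9% and 33.2% of all genes tested, or 62.1% in either direction. The median log2 fold change was 0.31 for the cyclins and -0.026 for all genes tested.

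*Ccnd3* (ENSMUSG00000034165, on GRCm38 at chr17:47505051-47599691) encodes cyclin D3, an activator of CDK4 and CDK6. It had 9029 and 7778 normalized counts in the wild-type pair and 2402 and 2036 in the *10xBulge* pair. The *10xBulge* values were far below those of the 4 other libraries, and the pairs were 0.22 apart on the log2 scale in wild type, 0.47 in *10xPerf* and 0.24 in *10xBulge*. The log2 fold change was -1.92 (standard error 0.39, limma adjusted p = 0.00592, 95% confidence interval -2.80 to -1.04), a 3.79-fold lower level. The adjusted p stayed under 0.1 in 17 of 17 alternative settings, with log2 fold changes of -2.04 to -1.54, and without N1 it was 0.0455.

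*Ccna2* (ENSMUSG00000027715, chr3:36564865-36572150) encodes cyclin A2, which acts in DNA replication and at entry into mitosis. It had 244 and 369 normalized counts in the wild-type pair and 882 and 805 in the *10xBulge* pair. The order of the groups was wild type, *10xPerf*, *10xBulge*, with no overlap between any of them. The log2 fold change was 1.49 (standard error 0.41, limma adjusted p = 0.0261, 95% confidence interval 0.57 to 2.41), or 2.80-fold. This call rested on N1, since without that library the log2 fold change was 1.19 and the limma adjusted p 0.146. Scaling to library totals moved the median of all genes tested to 0.36 and the *Ccna2* value to 1.87.

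*Ccna1* (ENSMUSG00000027793, chr3:55045469-55055501), the germ-line cyclin A, had 7219.8 and 5442 normalized counts in the wild-type pair and 5121 and 1979 in the *10xBulge* pair. Both *10xBulge* libraries were below wild type, N5 slightly and N6 strongly. The log2 fold change was -0.98 (standard error 0.50, limma adjusted p = 0.186, 95% confidence interval -2.11 to 0.16). The *10xBulge* pair differed by 1.37 on the log2 scale, against a median of 0.62 over all genes tested. The value rested on N6, since it was -0.29 without that library (limma adjusted p = 0.676) and -1.66 without N5 (limma adjusted p = 0.028). With each library's trend with GC content removed it was -1.02 (limma adjusted p = 0.0502).

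*Ccnd2* (ENSMUSG00000000184, chr6:127125162-127152193), a cyclin D of proliferating spermatogonia and granulosa cells, had 620.3 and 479 normalized counts in the wild-type pair, 314 and 1529 in the *10xPerf* pair, and 1339 and 1646 in the *10xBulge* pair. The *10xBulge* values were above wild type, but N4 of *10xPerf* lay between them. The log2 fold change of *10xBulge* against wild type was 1.44 (standard error 0.66, limma adjusted p = 0.14, 95% confidence interval -0.042 to 2.93). It passed the threshold in 6 of 17 alternative settings, among them scaling to library totals (1.83, limma adjusted p = 0.0631). *Ccnd1* (ENSMUSG00000070348, chr7:144929931-144939925), the cyclin D of many somatic cell types, had 780.5 and 351 in the wild-type pair, 496 and 645 in the *10xPerf* pair, and 874 and 634 in the *10xBulge* pair. All groups overlapped, and the log2 fold change of 0.51 in *10xBulge* against wild type had an interval of -0.58 to 1.59 (limma adjusted p = 0.473).

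The mitotic and meiotic B cyclins showed no difference past the threshold. *Ccnb2* (ENSMUSG00000032218, chr9:70407692-70421547), with the 3 CCAAT boxes shown above, had 5788 and 5132 normalized counts in the wild-type pair, 5954 and 5432 in the *10xPerf* pair, and 7050.3 and 5362 in the *10xBulge* pair. Its values lay close together across genotypes, with a log2 fold change of 0.17 in *10xBulge* against wild type (95% confidence interval -0.69 to 1.04, limma adjusted p = 0.776). *Ccnb1* (ENSMUSG00000041431, chr13:100778650-100786570), the main partner of CDK1, had 1779.7 and 2959.95 in the wild-type pair, 2466 and 4123 in the *10xPerf* pair, and 2876 and 2232 in the *10xBulge* pair. These also overlapped, and the log2 fold change was 0.14 (95% confidence interval -0.86 to 1.15, limma adjusted p = 0.846). *Ccnb3* (ENSMUSG00000051592, chrX:6979652-7041619), a B cyclin of early meiotic prophase, had 107 and 450.2 in the wild-type pair, 407 and 390.2 in the *10xPerf* pair, and 243 and 384 in the *10xBulge* pair. The wild-type pair spanned all other values, and its gap of 2.07 on the log2 scale compares with a median of 0.51 for all genes tested. The *10xBulge* log2 fold change of 0.48 (limma adjusted p = 0.626) became -0.56 without N1 and 1.51 without N2, where its limma adjusted p was 0.0968.

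The E cyclins, which activate CDK2 and are required in male meiosis, did not pass the threshold either. *Ccne1* (ENSMUSG00000002068, chr7:38097984-38107534) had 385 and 298 normalized counts in the wild-type pair, 214 and 311 in the *10xPerf* pair, and 493 and 431 in the *10xBulge* pair. The *10xBulge* libraries were the highest, with a log2 fold change of 0.44 against wild type (95% confidence interval -0.49 to 1.38, limma adjusted p = 0.468). *Ccne2* (ENSMUSG00000028212, chr4:11191351-11204779) had 1138 and 2393 in the wild-type pair, 2529.6 and 1887 in the *10xPerf* pair, and 1135 and 2794 in the *10xBulge* pair. Every genotype overlapped the others, and the pairs of wild type and *10xBulge* were 1.07 and 1.30 apart on the log2 scale. At 36.3% GC its longest transcript is the lowest in GC of the 10, and its lowest values were in N1 and N5. Once each library's GC trend was removed, N5 was the highest (11.2 on the log2 scale) and N1 still the lowest (10.3), with the others at 10.7 to 11.1.

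**Figure D2:**
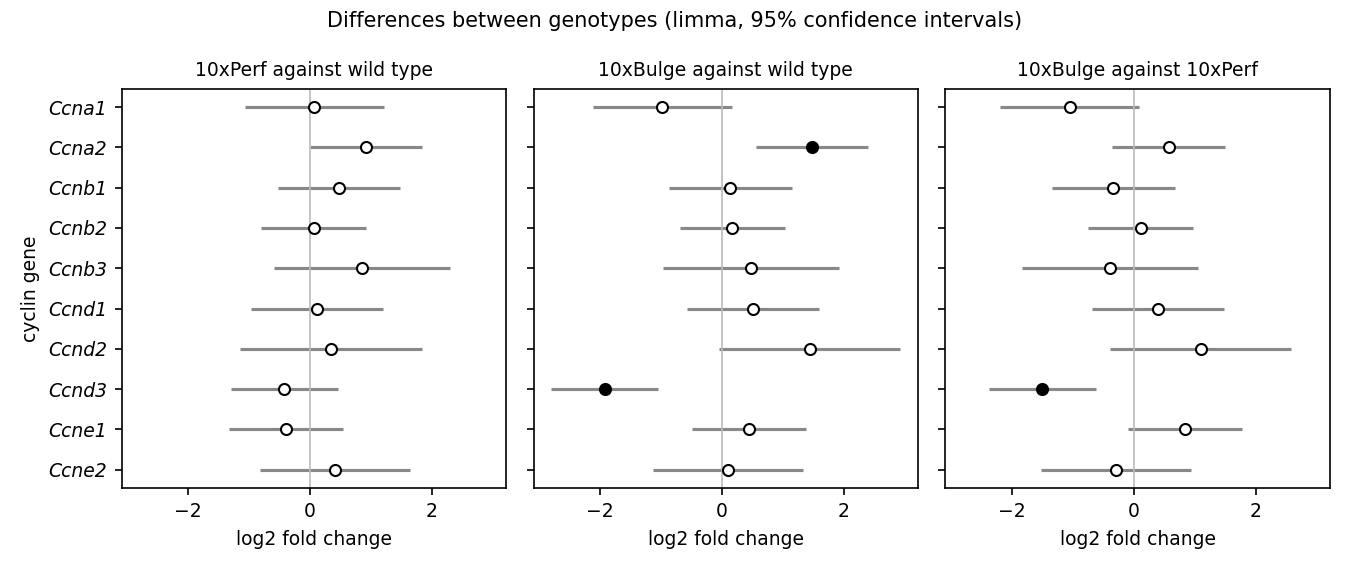
Log2 fold change (x axis) of each cyclin (y axis) in the 3 comparisons, with limma 95% confidence intervals as lines and filled points for a limma adjusted p under 0.1. Filled points are *Ccna2* (1.49) and *Ccnd3* (-1.92) in *10xBulge* against wild type, and *Ccnd3* (-1.50) in *10xBulge* against *10xPerf*.

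Beside the spermatid markers, other cell type markers moved with the *10xBulge* genotype. Sertoli cell markers were higher than in wild type for 8 of 11, Leydig cell markers for 6 of 8 and macrophage markers for 6 of 8, with median log2 fold changes of 1.21, 1.77 and 1.53. Summed Sertoli cell markers were 54276 to 79863 normalized counts in the wild-type and *10xPerf* libraries and 128026 and 270299 in the *10xBulge* pair. Those of Leydig cells were 46943 to 83129 against 150962 and 319236, and those of macrophages 3976 to 7683 against 12062 and 17250.1, so both were highest in *10xBulge*. Of the spermatogonial markers 2 of 12 were higher and 1 was lower, beside 11.4% and 23% of all genes tested. The median log2 fold change of this list was 0.74, beside -0.026 for all genes tested. The sum of these markers was 7851 to 14723 in the wild-type and *10xPerf* libraries and 21316 and 25488 in the *10xBulge* pair. Markers of spermatocytes, the cells in which *Ccna1* acts, had 1 of 12 higher and 1 lower with a median of 0.096, and their sum was 24939.9 to 55571 against 23139.9 and 39694. Peritubular markers had 0 of 5 higher and 1 lower, and endothelial markers 0 of 5 in either direction, also at an unadjusted p under 0.05. Their sums were 12197 to 17813 against 6464 and 9312 for the former, and 619 to 1027 against 705 and 1821 for the latter. The peritubular sum followed *Actg2*, the lower gene, with 7921 to 11533 in the wild-type and *10xPerf* libraries and 228 and 397 in the *10xBulge* pair. *Acta2* of the same list went the other way, with 1996 to 4261 against 4786 and 6357, so the sum does not describe all peritubular markers. In *10xPerf* 0 of 75 marker genes passed the threshold, beside 0.959% of all genes tested, and 1 had an unadjusted p under 0.05. The part of these shifts in the values of *Ccnd3*, *Ccna2*, *Ccna1* and *Ccnd2* was not tested.

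The knock-in lines were also compared with each other, since both carry 10 sites and differ in the kind of site. They are separate lines with 2 libraries each, so the kind of site and the line cannot be told apart. This comparison shares the *10xBulge* libraries with the one before. *Ccnd3* was lower in *10xBulge*, with 5319 and 7346 normalized counts in *10xPerf* and 2402 and 2036 in the *10xBulge* pair (log2 fold change -1.50 with a standard error of 0.39 and a 95% confidence interval of -2.38 to -0.62, limma adjusted p = 0.0196). No *10xBulge* value reached a *10xPerf* value. Without N4 the log2 fold change was -1.27 and the limma adjusted p 0.13, so this call rested on that library. No other cyclin passed, so 0 of 10 were higher (also 0 at an unadjusted p under 0.05) and 1 lower, beside 12.9% and 24.1% of all genes tested, or 37% in either direction. Libraries did not overlap for 2 cyclins that were higher (*Ccna2* and *Ccne1*) and 3 that were lower (*Ccna1*, *Ccnb3* and *Ccnd3*), beside 30.7% and 35.3%, or 66.1% in either direction. *Ccna1* had a log2 fold change of -1.05 (limma adjusted p = 0.152), which passed without N5 (-1.73, limma adjusted p = 0.023) and with the GC trend removed (-1.28, limma adjusted p = 0.0212), and which was -0.36 without N6 (limma adjusted p = 0.584). *Ccne1* had one of 0.84 (95% confidence interval -0.10 to 1.77, limma adjusted p = 0.164), which passed with scaling to library totals (1.08, limma adjusted p = 0.0509). *Ccnd2* had 1.10 (limma adjusted p = 0.246), and its value rested on the *10xPerf* pair, which was 2.28 apart on the log2 scale, since it was -0.043 without N3 and 2.24 without N4 (limma adjusted p = 0.0326). The median log2 fold change of the 10 was -0.091, beside -0.067 for all genes tested.

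Ratios of related cyclins within a library do not depend on the scaling between libraries. They are given without a test, since an exact permutation test of 2 libraries against 2 cannot go below a p of 0.33. *Ccna1* was 29.6 and 14.8 times *Ccna2* in wild type, 11.6 and 11.7 times in the *10xPerf* pair, and 5.81 and 2.46 times in the *10xBulge* pair. The groups did not overlap and fell in this order. The step from wild type to *10xPerf* leaned on N1, since the difference in log2 ratio was -0.34 without N1 and -1.34 without N2. *Ccnd3* was 14.6 and 16.2 times *Ccnd2* in wild type, 16.9 and 4.80 times in the *10xPerf* pair, and 1.79 and 1.24 times in the *10xBulge* pair. The *10xBulge* ratios were near equality and below all others, while N4 lay between. *Ccnb2* was 3.25 and 1.73 times *Ccnb1* in wild type, 2.41 and 1.32 times in the *10xPerf* pair, and 2.45 and 2.40 times in the *10xBulge* pair, and here the groups overlapped.

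**Figure D3:**
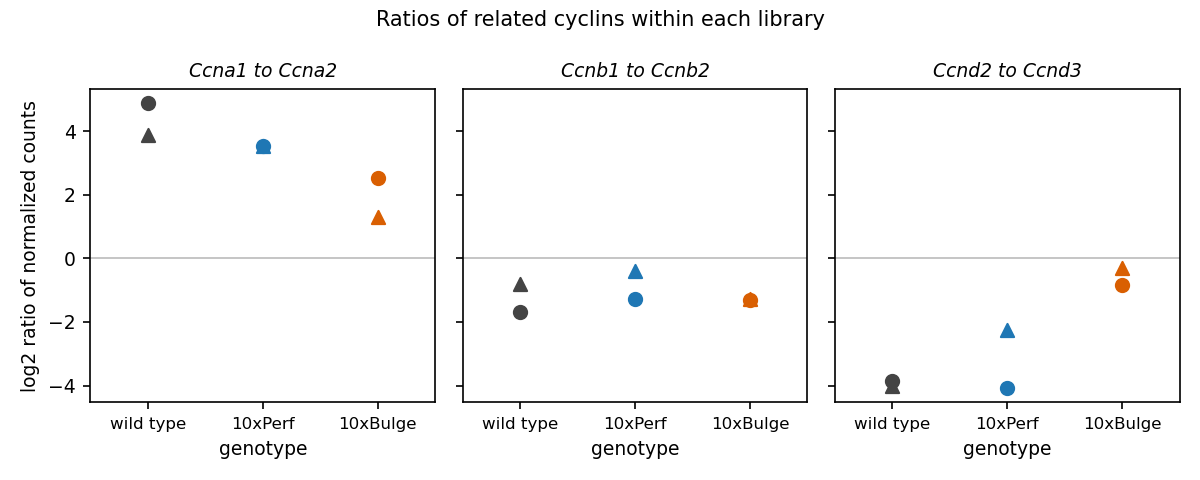
Log2 ratio of normalized counts of 2 related cyclins (y axis) in each library, by genotype (x axis), with circles for the first and triangles for the second library. *Ccna1* to *Ccna2* is 4.88 and 3.88 in the wild-type pair and 2.54 and 1.30 in the *10xBulge* pair, *Ccnd2* to *Ccnd3* is -3.86 and -4.02 against -0.84 and -0.31, and *Ccnb1* to *Ccnb2* overlaps between genotypes.

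Per kilobase, the 10 cyclins together held 12019.7 and 11061 in the wild-type pair, 11035 and 12939 in the *10xPerf* pair, and 10782 and 8008 in the *10xBulge* pair. Cyclin B genes made up 37.6% and 41.9% of this sum in the wild-type pair, 45.03% and 40.9% in the *10xPerf* pair, and 53.9% and 56.0% in the *10xBulge* pair. The *10xBulge* share was above all others. A share depends also on the other cyclins of the sum, and no B cyclin passed the threshold in level. Cyclin D genes made up 22.0% and 19.8%, 14.1% and 17.9%, and 9.90% and 12.0% in the same order, so that *10xBulge* was lowest. Cyclin A genes made up 35.6% and 29.7%, 32.2% and 35.1%, and 30.4% and 17.8%, and cyclin E genes 4.75% and 8.54%, 8.59% and 6.05%, and 5.79% and 14.3%. For cyclins A and E the *10xBulge* pair was wide apart and N5 lay within the range of the other libraries. With protein-coding lengths, the cyclin D share was 32.8% and 30.3% in wild type and 14.0% and 16.5% in *10xBulge*.

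**Figure D4:**
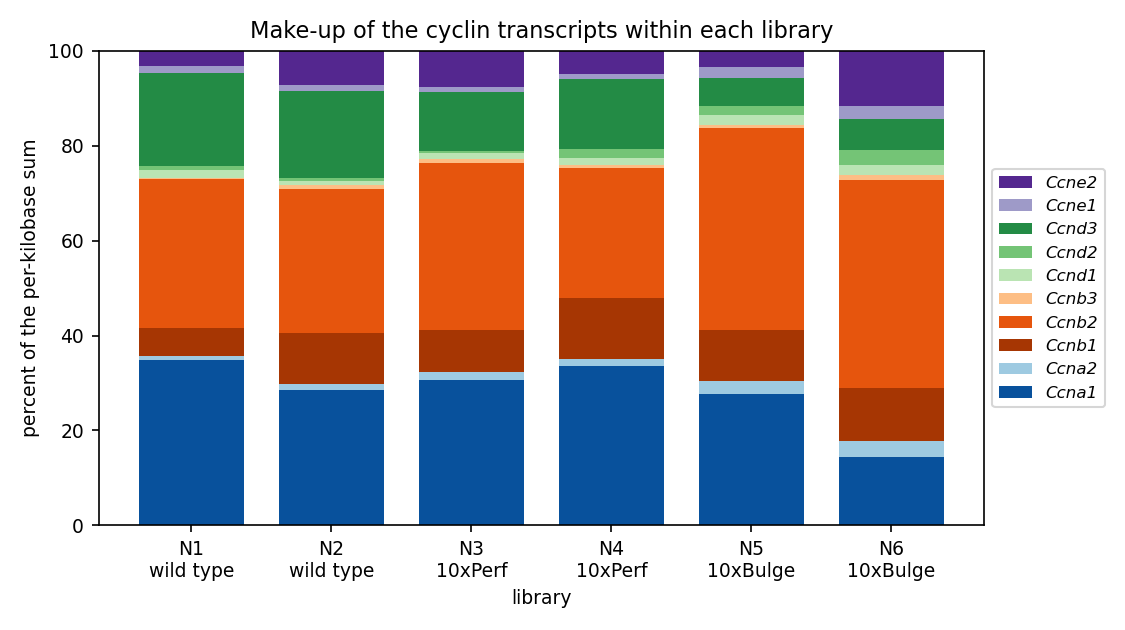
Share of each cyclin (stacked bars, percent) in the sum of normalized counts per kilobase of longest transcript, for each of the 6 libraries. *Ccnd3* narrows in N5 and N6, and the cyclin B genes together reach 53.9% and 56.0% there. A share depends also on the other cyclins of the sum.

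The kinases and regulators that cyclins work with were read from the same fits. In *10xPerf* against wild type, 0 of 79 tested genes of the 10 lists were higher and 1 was lower, *Ccnb1ip1*, a ubiquitin ligase of meiotic crossovers. It had 2119 and 1746 normalized counts in the wild-type pair, 138 and 252 in the *10xPerf* pair, and 1499 and 473 in the *10xBulge* pair (log2 fold change -3.36 in *10xPerf* against wild type, limma adjusted p = 0.0447). Of all genes tested, 0.467% were higher and 0.492% lower in this comparison. In *10xBulge* against wild type 15 of 79 were higher and 5 lower, beside the 11.4% and 23% given above for all genes. The same shares are the background for the count of each list below. How far these calls rest on N1 was not tested. Among the higher genes, N1 was far below N2 for *Ccng1* (323 against 761 normalized counts) and *Mcm6* (679 against 1555), but not for *Cdk1* (2258 against 2145). Against *10xPerf*, 11 of 79 were higher and 8 lower, beside 12.9% and 24.1% of all genes.

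Among the kinase partners, *Cdk1* was higher in *10xBulge*, with 2258 and 2145 normalized counts in the wild-type pair and 5030.03 and 3993 in the *10xBulge* pair (log2 fold change 1.03, limma adjusted p = 0.0938), and the other 3 did not pass. Of the 7 CDK inhibitors, 2 were higher and 1 lower. *Cdkn2a*, an inhibitor of the cyclin D kinases, had a log2 fold change of 1.74 (limma adjusted p = 0.0248) and *Cdkn1c*, which restrains G1 kinases, one of -2.87 (limma adjusted p = 0.00681). Phosphatases of the Cdc25 family and the kinases that oppose them passed in 0 of the 5 cases tested, also at an unadjusted p under 0.05. *Cdk7*, the kinase that activates CDKs, was higher by 1.15 on the log2 scale (limma adjusted p = 0.0867), as the only call among 5 genes of its list.

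The genes of cyclin degradation went both ways, with 2 of 11 higher and 2 lower. *Skp2*, the substrate receptor of a ubiquitin ligase that acts on CDK inhibitors, had 9588 and 7219.74 normalized counts in the wild-type pair and 288 and 316 in the *10xBulge* pair (log2 fold change -4.78, limma adjusted p = 2.02e-05). *Anapc1*, a subunit of the anaphase-promoting complex that marks cyclin B for destruction, had a log2 fold change of 1.81 (limma adjusted p = 0.0148). Of the Rb and E2F genes, which cyclin D kinases act on, 3 of 9 were higher and 1 lower. The lower gene was *Rbl2*, a relative of Rb (log2 fold change -2.62, limma adjusted p = 0.00305), and *E2f3*, a transcription factor of S phase genes, was among the higher (1.37, limma adjusted p = 0.0617).

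Of the 4 germ-line partners of cyclins, *Proca1*, named for its interaction with cyclin A1, had 2538 and 3736 normalized counts in the wild-type pair and 59.2 and 19.4 in the *10xBulge* pair (log2 fold change -6.46, limma adjusted p = 2.61e-05). The other 3 did not pass. Of 14 other cyclin genes, 3 were higher and 0 lower, including *Ccng1* (1.38, limma adjusted p = 0.0654) and *Ccng2* (1.33, limma adjusted p = 0.04997). DNA replication genes were higher for 3 of 10, beside 11.4% of all genes tested, with a list median of 0.95 beside -0.026 for all genes. Among the 3 were *Rrm2*, a subunit of ribonucleotide reductase (1.24, limma adjusted p = 0.0492) and *Mcm6*, of the replicative helicase (1.51, limma adjusted p = 0.0537). Mitotic spindle and division genes were called in 0 of 10, also at an unadjusted p under 0.05, with a median of 0.024. The Sertoli cell, Leydig cell and macrophage markers that were higher in the same libraries are given above.

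**Figure D5:**
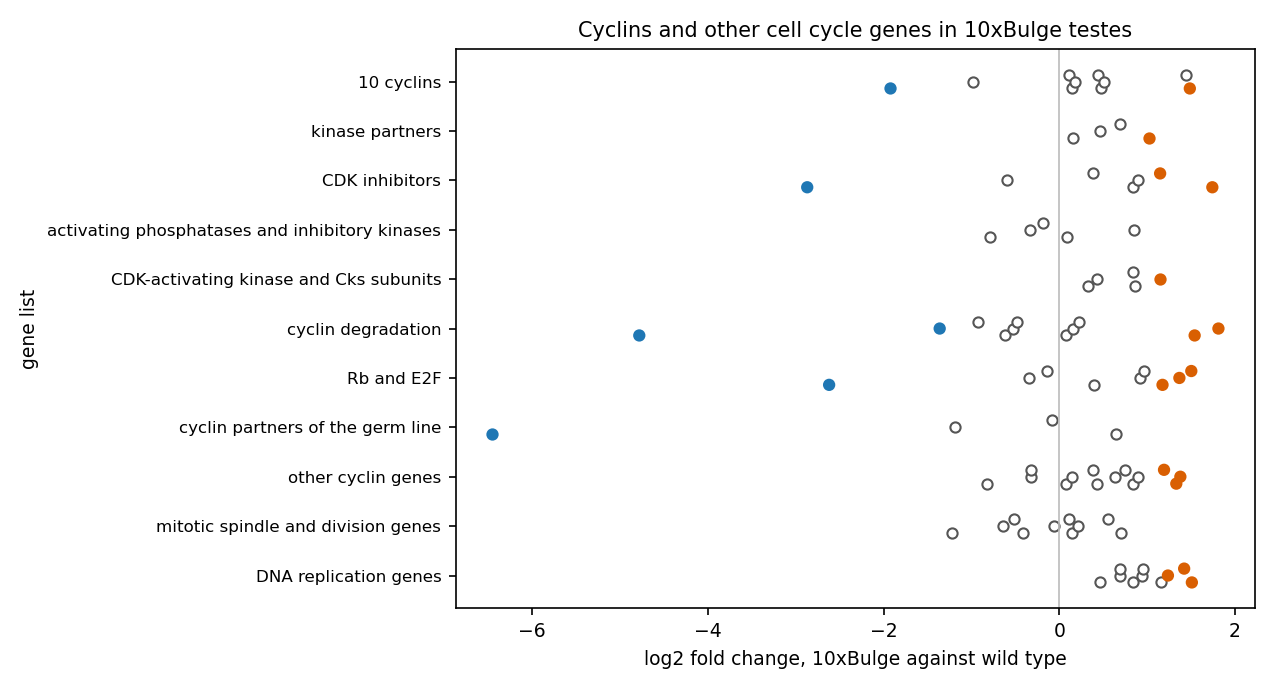
Log2 fold change of *10xBulge* against wild type (x axis) for the 10 cyclins and the tested genes of 10 cell cycle lists (y axis), 1 point per gene, filled orange or blue for a limma adjusted p under 0.1 with a higher or lower level. *Skp2* (-4.78) and *Proca1* (-6.46) lie farthest to the left, beyond *Ccnd3* (-1.92).

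In the comparison of *10xBulge* with *10xPerf*, *Cdk4*, the partner of cyclin D, was higher (log2 fold change 1.10, limma adjusted p = 0.0866), *Cdc25b* was higher (1.38, limma adjusted p = 0.0382) and *Cdc25c*, an activator of CDK1, was lower (-1.14, limma adjusted p = 0.0519). *Cenpe*, a kinesin of the kinetochore, was the only division gene called (-1.43, limma adjusted p = 0.0519). *Skp2* (-4.59, limma adjusted p = 2.29e-05) and *Proca1* (-7.03, limma adjusted p = 1.51e-05) were lower there too, and both comparisons use the same *10xBulge* libraries.

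The genes whose values over the 6 libraries were most like those of the leading cyclin of each subfamily were found among 13781 protein-coding genes, by the root mean square difference of centred log2 values. For *Ccnd3* these were *Dda1* (0.068), *Slc39a13* (0.11) and *Lmbr1l* (0.11). *Dda1* had 6715 and 6296 normalized counts in the wild-type pair and 1954 and 1715 in the *10xBulge* pair. That its low values were in the same libraries as those of *Ccnd3* follows from how it was picked. For *Ccna1* they were *Rnf19b* (0.083), *Fdft1* (0.086) and *Otud6a* (0.12), all lowest in N6, which also follows from the choice. For *Ccnb2* they were *Slc7a6os* (0.054), *Ppip5k1* (0.056) and *Dusp23* (0.060), and for *Ccne2* *Rasa1* (0.089), *Ppig* (0.090) and *Ppil4* (0.096). Among the cyclins themselves the closest pair was *Ccnd1* and *Ccne1* (0.33) and the farthest *Ccnd2* and *Ccnd3* (1.54), a description over 6 libraries that share their scaling.

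Copies and neighbours of these genes could share reads with them. *Ccnb2-ps*, a transcribed pseudogene, had 10.6 to 50.7 normalized counts and *Ccnd3-ps* 0.933 to 7.28, both far below their parent genes, and *Ccnb1-ps* was listed at 0 in every library. On GRCm38, 5 of the cyclins overlap a gene on the opposite strand that had over 100 normalized counts in every library, and no gene on the same strand. *Ccnd3* shares 361 bases with *Bysl* (1551 to 4059 normalized counts), *Ccna2* 863 bases with *Exosc9* (524 to 968) and *Ccna1* 260 bases with *4931419H13Rik* (103 to 379). *Ccnd1* shares 1771 bases with *LTO1* and *Ccne2* 5622 bases with *Ints8*. The 2 genes opposite *Ccnd2* had at most 7.97. The library kit keeps the strand of the RNA.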

How the data were processed

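Testis RNA-seq of wild-type, *10xPerf* and *10xBulge* mice was used (2 libraries each), and the 20 immunoprecipitation libraries were not analysed here. The authors assigned single-end reads to GRCm39 transcripts with salmon, with GC correction, and deposited normalized counts per gene from DESeq2, a signal that is not whole reads (19.4% of the genes above 0 were whole multiples of a read in every library, within 0.01 of a read). Count tests were therefore not run. The log2 fold changes and adjusted p-values that the authors deposited for their own comparisons were not used.

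A gene was tested if 2 or more libraries had 10 or more. Values were turned into log2(value + 1) and fitted with limma 3.58.1 (R 4.3.3), using all 6 libraries, genotype as the only term and a mean-variance trend. This scale understates the change of low genes. P-values were adjusted over all 23782 genes by the Benjamini-Hochberg method, two-sided, at a threshold of 0.1. In simulated data for *10xBulge* against wild type (23782 genes, 200 of them changed), the fit recovered 11.9%, 71.6% and 98.5% of log2 changes of 1, 2 and 4, and 7.6% of its calls were false. That setting differs from the real comparison, where 34.4% of genes were called. The simulated noise followed a smooth trend with level, without differences in spread between genes of like level. These rates describe the simulation and may not hold for the real comparison. All 10 cyclins are named, and from each list of pathway genes at most the 2 with the smallest p among those past the threshold. For the leading cyclin of each subfamily, the 3 nearest protein-coding genes with a mean of at least 100 are named. Lengths, GC content and coordinates came from GENCODE M21 on GRCm38, and promoters from RefSeq. The alternatives, run for the cyclins, were other scalings, filters, pseudocounts (0.1 and 10), samples in the fit, the variance model, a threshold of 0.05, removal of GC trends (loess, span 0.3), and leaving out each library. Scaling to totals of protein-coding genes and protein-coding lengths were chosen after seeing the data. The cyclins and the gene lists were chosen with earlier results of these data known. The worth of 3 reads covers counting error only.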

Additional observations from a re-analysis of the deposited data

How the results depend on the processing

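No paired analysis was possible because the library numbers N1 to N6 are not shared between genotypes. Of 510 values of single cyclins under 17 alternatives, 472 kept their direction and side of the threshold, 14 newly passed it, 2 no longer passed and 22 changed sign, and of those that changed sign none had passed the threshold. In *10xBulge* against wild type, 2 cyclins were higher with library totals, with totals of protein-coding genes, under the filter of 10 normalized counts in every library and in a fit of the 2 genotypes alone, where *Ccnd2* joined *Ccna2* each time, and 2 were lower with the GC trend removed, where *Ccna1* joined *Ccnd3*. In *10xBulge* against *10xPerf*, 1 was higher (*Ccne1*) with library totals and with totals of protein-coding genes, and 2 were lower (*Ccna1* and *Ccnd3*) with the GC trend removed. Leaving out each library gave 0 to 2 higher and 1 to 2 lower against wild type, and 0 to 1 higher and 0 to 2 lower against *10xPerf*. Outside these, *Ccnb2* in *10xPerf* went to -0.0048 with the upper quartile and *Ccne2* in *10xBulge* against *10xPerf* to 0.28 with the GC trend removed. The cause was not tested.

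Leaving out each library gave these ranges of log2 fold change where the sign turned. In *10xPerf* against wild type they were -0.13 to 0.28 for *Ccna1*, -0.026 to 0.15 for *Ccnb2*, -0.18 to 1.89 for *Ccnb3*, -0.46 to 0.69 for *Ccnd1*, -0.79 to 1.49 for *Ccnd2* and -0.13 to 0.94 for *Ccne2*. In *10xBulge* against wild type they were -0.22 to 0.51 for *Ccnb1*, -0.024 to 0.37 for *Ccnb2*, -0.56 to 1.51 for *Ccnb3*, -0.068 to 1.08 for *Ccnd1* and -0.54 to 0.76 for *Ccne2*. In *10xBulge* against *10xPerf* they were -0.70 to 0.039 for *Ccnb1*, -0.085 to 0.31 for *Ccnb2*, -0.043 to 2.24 for *Ccnd2* and -0.94 to 0.35 for *Ccne2*. The log2 ratio of *Ccnb1* to *Ccnb2* ranged from -0.041 to 0.87 in *10xPerf* minus wild type and from -0.48 to 0.42 in *10xBulge* minus wild type, and that of *Ccnd2* to *Ccnd3* from -0.14 to 1.68 in *10xPerf* minus wild type.

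Counts over all genes moved more. In *10xPerf*, the 111 higher and 117 lower genes became 72 and 77 with library totals, 44 and 53 under the stricter filter, 40 and 65 with a pseudocount of 0.1, 214 and 190 with only the 2 genotypes and 63 and 72 at 0.05. In *10xBulge* against wild type, the 2712 higher and 5466 lower became 5788 and 4745 with library totals, 5012 and 4950 with totals of protein-coding genes, 2599 and 2926 under the stricter filter, 1512 and 4721 with only the 2 genotypes and 1370 and 4643 at 0.05. Against *10xPerf*, 3077 and 5729 became 5122 and 5160 with library totals, 5164 and 5157 with totals of protein-coding genes, 2850 and 3064 under the stricter filter, and 1725 and 4887 at 0.05. Library totals moved the median of all genes to 0.15, 0.36 and 0.18 in the 3 comparisons, and totals of protein-coding genes to 0.26 and 0.20 in those of *10xBulge*. In *10xPerf* against wild type, leaving out 1 of its own libraries (N1 to N4) gave 11 to 31 higher and 10 to 27 lower genes, and leaving out N5 or N6 200 to 204 and 181 to 186. In *10xBulge* against wild type, the 2712 higher became 636 without N1, 1511 without N3, 1482 without N4 and 1711 without N5. Against *10xPerf*, the 3077 higher became 418 without N3, 1685 without N4 and 1583 without N5, and the 5729 lower became 3730 without N3. The shares of all genes called in the report rest on these counts.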
